A study of Mus musculus with 384 samples.

Results

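The 9 genes described here encode the core of the synaptic vesicle fusion machinery and its complexin clamps: Snap25, Stx1a, Stx3, Vamp1, Vamp2, Cplx1, Cplx2, Cplx3 and Cplx4. They were taken by name from the 32813 genes of a single-cell RNA data set of sorted mouse retinal cells. At postnatal day 17, 96 cells were sorted from each of the 4 retinas of 2 mice, and 383 of these 384 cells had values. The mice carried Cre recombinase under Kcng4 together with the stop-YFP reporter of the Thy1-stop-YFP Line#1 strain, so every cell compared here shares present or past Kcng4-driven recombination and reporter expression, and there was no treatment. The groups compared, 3 in all, were each made of cells with at least 3000 genes at an expected count of 1 or more and with exactly 1 of the transcripts Vsx1, Ddit4l and Sox6 at 20 TPM or more (transcripts scaled by length and to a fixed total per cell, so that levels can be set side by side between genes). These were 60 Vsx1-only cells (34 of mouse 1 and 26 of mouse 2), 59 Ddit4l-only cells (29 and 30) and 151 Sox6-only cells (63 and 88), among 321 cells that passed the gene minimum. Vsx1 and Sox6 encode transcription factors and Ddit4l a regulator of mTOR signalling; since they define the groups, they are not treated as results.

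Release of neurotransmitter depends on a 4-helix bundle that forms between SNARE proteins of the vesicle and of the plasma membrane. Synaptobrevin (Vamp1 or Vamp2) sits on the vesicle, syntaxin (Stx1a or Stx3) and SNAP-25 (Snap25) on the plasma membrane, and complexins bind the assembled bundle and both restrain spontaneous fusion and aid fusion triggered by calcium. Bipolar cells and photoreceptors release glutamate at ribbon synapses, which are known to use syntaxin-3 where conventional synapses use syntaxin-1, and complexin-3 and complexin-4 where conventional synapses use complexin-1 and complexin-2.

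The complexins differ at the end of their coding sequence, and the ends of 3 of them are shown because the make-up of the complexin transcripts is a main result below. Each line gives the last 45 bases of the coding sequence with its stop codon, from GENCODE M21 transcripts (GRCm38), 5′ to 3′, with the last 4 codons before the stop in capitals.
Cplx1: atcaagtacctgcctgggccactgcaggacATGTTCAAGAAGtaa
Cplx2: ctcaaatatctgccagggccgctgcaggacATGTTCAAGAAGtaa
Cplx3: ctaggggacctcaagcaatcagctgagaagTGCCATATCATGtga
In Cplx1 and Cplx2 the capitals were identical, and both genes had a coding sequence of 134 codons, with 79.8% of 405 bases the same. In Cplx3, of 158 codons, the 4 codons open with a cysteine codon, the place of the CAAX box through which complexin-3 is known to be lipid-anchored to membranes. Reads from stretches that Cplx1 and Cplx2 share could have been split between them by the authors' estimation of counts.

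Depth was alike in the 3 groups. The median total of expected counts per cell was 1.07e+06 in Vsx1-only, 1.09e+06 in Ddit4l-only and 1.07e+06 in Sox6-only cells, and the shallowest cell had 203657. A list of 12 bipolar cell markers was used to check the cells. Counted from 1 TPM up, 11 of them were each present in most Vsx1-only cells, 9 in most Ddit4l-only cells and 10 in most Sox6-only cells, and their summed level ranged over retinas from 6568 to 9658, from 3795 to 5416 and from 7388 to 9779 TPM in those groups. None of 5 rod bipolar markers and none of 8 amacrine markers was present in most cells of any group. Of 10 ganglion cell markers, Thy1 was present in most Sox6-only cells, and none was in most cells of the other groups. The summed ganglion cell level ranged over retinas from 10.8 to 26.03 TPM in Vsx1-only and 16.6 to 46.1 TPM in Ddit4l-only cells. In Sox6-only cells it ranged from 30.4 to 48.1 TPM. The cone marker Pde6h and the horizontal cell marker Calb1 were present in most cells of all 3 groups. So was the Müller glia marker Slc1a3, and Glul, another, was present in most Vsx1-only and Sox6-only cells. The summed level of 7 cone markers ranged over retinas from 22.3 to 207 TPM in Vsx1-only and 89.3 to 129 TPM in Ddit4l-only cells. In Sox6-only cells it ranged from 12.3 to 571 TPM. The summed level of 8 Müller glia markers ranged over retinas from 174 to 1992 TPM in Vsx1-only, 140 to 272 TPM in Ddit4l-only and 179 to 471 TPM in Sox6-only cells. Rod photoreceptor transcripts were present in all 3 groups: the summed level of 10 rod markers ranged over retinas from 967 to 3958 TPM in Vsx1-only, 759 to 2193 TPM in Ddit4l-only and 1336 to 2951 TPM in Sox6-only cells, and it reached 1000 TPM in 20 of 60, 12 of 59 and 44 of 151 cells. None of the 10 rod markers was at 0 in every cell of a group. Mitochondrially encoded transcripts took a median of 3.62% to 4.97% of the counts in the Ra retinas and 1.97% to 2.35% in the la retinas, over the 3 groups. The labels do not spell out these suffixes, and because the retinas went into separate sets of wells, retina and well set cannot be told apart. The replicate in the main test is the mouse (n = 2), since cells and retinas of a mouse share their source.

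By the means of each mouse, Snap25 was the most abundant of the 9 transcripts in all 3 groups. Cplx3, Cplx4, Stx3 and Vamp2 followed in an order that differed between groups, all above Vamp1. Cplx2 and Stx1a lay below Vamp1, as did Cplx1 in Vsx1-only and Sox6-only cells, while Cplx1 overlapped Vamp1 in Ddit4l-only cells. Single retinas and cells did not all keep Snap25 first. In Ddit4l-only cells of retina 1la, Cplx3 was above Snap25 (580 against 544 TPM). Cell by cell, Snap25 was the highest of the 9 in 60 of 60 Vsx1-only, 34 of 59 Ddit4l-only and 83 of 151 Sox6-only cells. In Vsx1-only cells the mean levels over mice were 2172 ± 144 TPM for Snap25, 533 ± 91.1 for Cplx3, 445 ± 28.2 for Stx3, 291 ± 9.90 for Vamp2 and 286 ± 28.6 for Cplx4 (SD, n = 2 mice), and the neighbours Vamp2 and Cplx4 overlapped between the mice. In Ddit4l-only cells the order was Snap25 at 679 ± 7.12, Cplx4 at 407 ± 52.9, Cplx3 at 371 ± 92.6, Stx3 at 249 ± 56.1 and Vamp2 at 234 ± 3.20 TPM, and Cplx4 with Cplx3 and Stx3 with Vamp2 overlapped. In Sox6-only cells the order was Snap25 at 780 ± 9.95, Cplx3 at 527 ± 52.3, Cplx4 at 308 ± 10.96, Stx3 at 261 ± 9.78 and Vamp2 at 218 ± 8.13 TPM, with no overlap between neighbours by mouse. By retina there was overlap. In Sox6-only cells of 2la, Vamp2 was above Stx3 (265 against 221 TPM), as it was by median over all Sox6-only cells (209 against 188 TPM). Stx3 in 2Ra (290 TPM) was also above Cplx4 in 1la (282 TPM). A set of Snap25, Stx3, Vamp2 and at least 1 of Cplx3 and Cplx4, each at 1 TPM or more, was found in 59 of 60 Vsx1-only, 57 of 59 Ddit4l-only and 143 of 151 Sox6-only cells. TPM are shares of a cell's transcripts, so a difference in the amount of RNA per cell would not be seen in them.

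**Figure D1:**
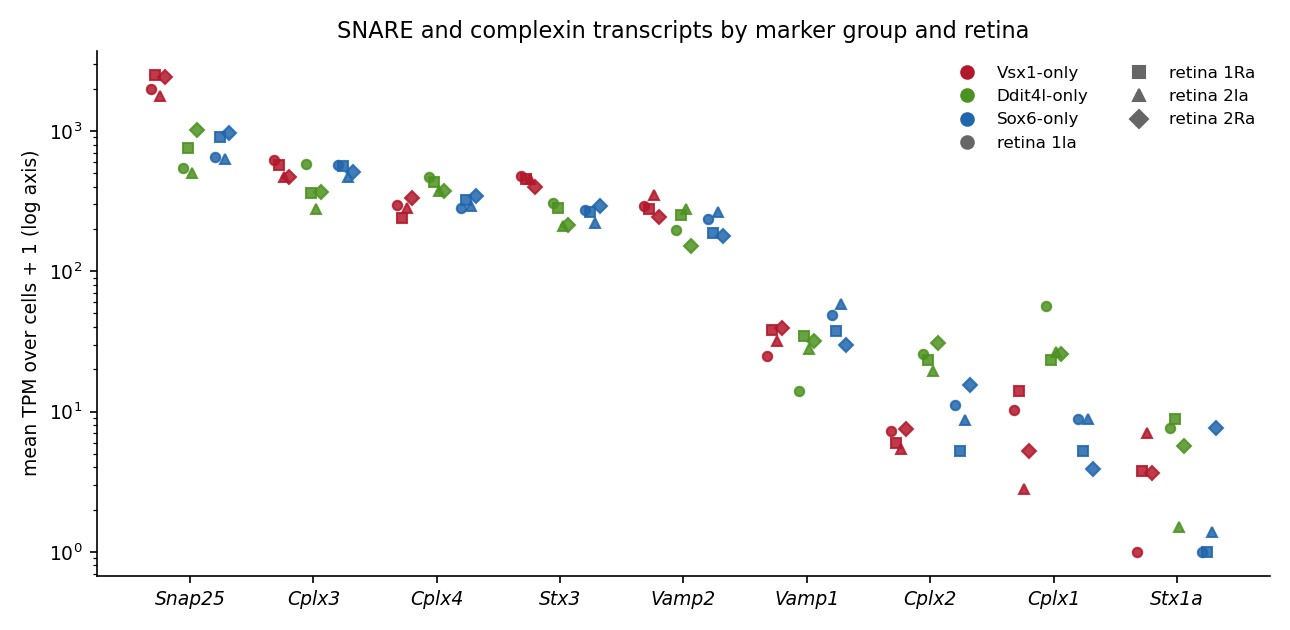
Mean TPM + 1 over the cells of each retina (log axis) for the 9 genes, in Vsx1-only, Ddit4l-only and Sox6-only cells; each point is 1 retina. Snap25 of Vsx1-only cells stands above both other groups in every retina, and Cplx1 and Cplx2 are highest in Ddit4l-only cells.

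Expected counts were rounded, summed per mouse and group, and compared across all genes with edgeR's quasi-likelihood test with the mouse as a block. A gene was called at a Benjamini-Hochberg adjusted p under 0.05 with a log2 fold change of at least 1 in size. All 9 genes passed the filter on low counts, among 16638 genes tested. None of the 9 was called in Vsx1-only over Sox6-only cells, where 0% of all genes were called, none in Ddit4l-only over Sox6-only cells, where 0% were called, and none in Vsx1-only over Ddit4l-only cells, where 0.0421% were called. With 2 mice this fit had 2 residual degrees of freedom, so the absence of a call does not show that levels were alike. At an unadjusted p under 0.05 there were 2 of the 9 in the first comparison (Snap25 and Stx3), 4 in the second (Cplx1, Cplx2, Cplx3 and Vamp1) and 6 in the third (Snap25, Stx3, Cplx1, Cplx2, Cplx3 and Vamp2), beside 8.58%, 8.03% and 12.8% of all genes tested.

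When counts were instead summed per retina and the block was the retina, edgeR called 1, 0 and 2 of the 9 genes in the same order of comparisons, beside 0.806%, 0.565% and 2.29% of all genes. That fit counts the 2 retinas of a mouse as separate replicates, which makes its p-values too small where the mouse is the replicate. The DESeq2 Wald test on the sums per mouse called 1, 2 and 3 of the 9, beside 5.11%, 4.6% and 9.67% of all genes. The called genes were Snap25, Cplx1 and Cplx2, which are described below with their values. The comparisons share groups and are not independent of each other.

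**Figure D2:**
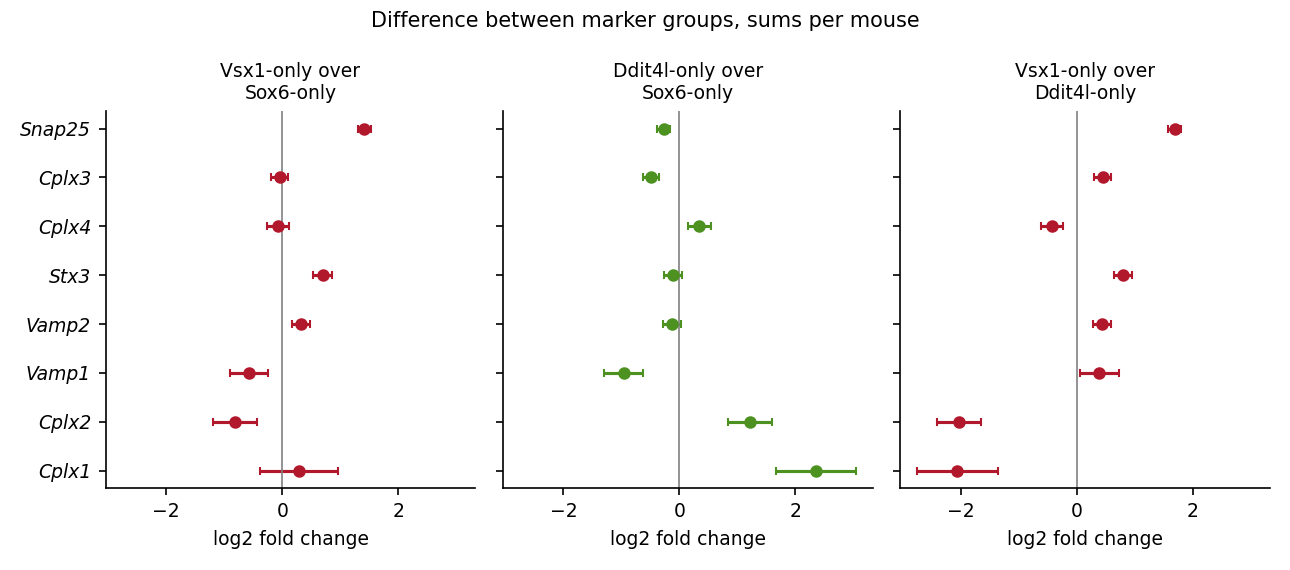
Log2 fold change between groups from sums per mouse (edgeR, mouse as a block), with bars of 1 standard error; Stx1a is left out because mouse 1 had no Stx1a count in Sox6-only cells. Snap25 lies at 1.42 and 1.69 in the comparisons with Vsx1-only cells on top, and Cplx1 and Cplx2 lie at 2.35 and 1.21 in Ddit4l-only over Sox6-only cells.

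Snap25 (chr2:136713453-136782428, plus strand, GRCm38) encodes the plasma membrane SNARE that gives the bundle 2 of its helices. Its mean level in Vsx1-only cells was 1997, 2519, 1783 and 2404 TPM in retinas 1la, 1Ra, 2la and 2Ra. In Ddit4l-only cells it was 544, 758, 503 and 1017 TPM, and in Sox6-only cells 655, 902, 626 and 963 TPM, in the same order of retinas. The lowest Vsx1-only retina thus lay above the highest retina of either other group, and those 2 groups overlapped each other. Over single cells Snap25 ran from 645 through a median of 2003 to 4633 TPM in Vsx1-only cells, from 6.31 through 688 to 2015 TPM in Ddit4l-only cells and from 5.61 through 669 to 2994 TPM in Sox6-only cells. Of the 60 Vsx1-only cells, 59 were above the Sox6-only median and 11 above the highest Sox6-only cell. The cell-to-cell coefficient of variation was 0.394 in Vsx1-only, 0.538 in Ddit4l-only and 0.694 in Sox6-only cells.

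Summed per mouse, Snap25 was at 2834 and 2681 CPM (the summed deposited counts brought to 1 common library total) in Vsx1-only cells, against 980 and 1089 CPM in Sox6-only cells, a log2 fold change of 1.42 ± 0.11 (SE, 2.67-fold). The edgeR quasi-likelihood adjusted p was 0.129, so the gene was not called. It was called without the replicate block (adjusted p = 0.0487), in sums per retina (adjusted p = 0.000867) and by DESeq2 (adjusted p = 1.69e-12). Within each single retina the log2 fold change was positive, from 1.23 in 2Ra to 1.55 in 1la. Against Ddit4l-only cells, at 839 and 874 CPM, the log2 fold change was 1.69 ± 0.11 (3.22-fold) with an edgeR adjusted p of 0.0783, also above the threshold. It passed without the replicate block (adjusted p = 0.0256), in sums per retina (adjusted p = 0.000185) and by DESeq2 (adjusted p = 7.99e-17), and it was positive in 4 of 4 retinas. In Ddit4l-only over Sox6-only cells the log2 fold change was -0.27 ± 0.11 with an edgeR adjusted p of 0.629.

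Snap25 was also read in cells with few rod transcripts, and the part of rod transcripts in its levels was not tested. Where the rod markers summed to under 1000 TPM, Snap25 averaged 2215 ± 448 TPM in Vsx1-only, 629 ± 66.8 TPM in Ddit4l-only and 764 ± 36.9 TPM in Sox6-only cells (SD, n = 2 mice). Without the rod-rich cells the log2 fold change of Vsx1-only over Sox6-only cells was 1.47 ± 0.18 (SE, edgeR adjusted p = 0.225). Snap25 also differed between the retinas of a mouse. The Ra retina stood above the la retina in all 3 groups, by ratios of 1.26 and 1.35 in Vsx1-only cells, 1.39 and 2.02 in Ddit4l-only cells and 1.38 and 1.54 in Sox6-only cells for mouse 1 and mouse 2. The share of mitochondrially encoded counts was also higher in the Ra retinas. In all 3 groups and both mice, the Ra retina had a lower median count per cell and a higher median rod sum than the la retina. In Sox6-only cells, for example, the median count was 747269 in 1Ra against 1.30e+06 in 1la. The part of these differences in the Snap25 ratios was not tested. No other of the 9 genes had Ra above la in both mice of all 3 groups.

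**Figure D3:**
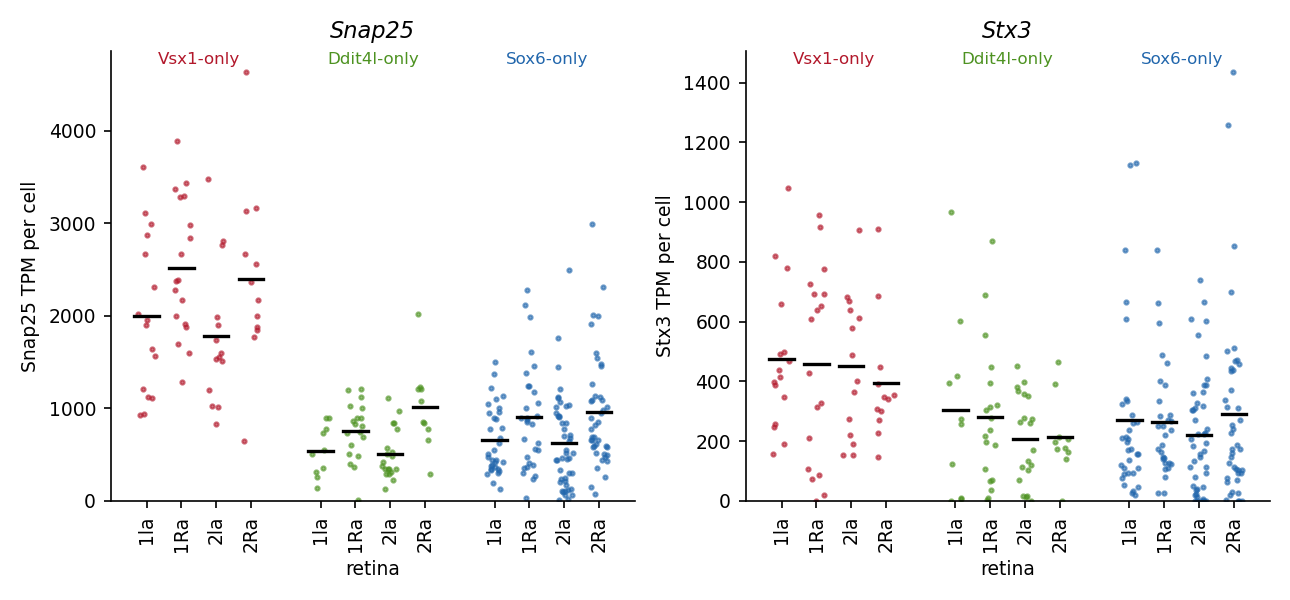
Snap25 (left) and Stx3 (right) TPM in each cell, by group and retina; black bars are retina means. Snap25 means of Vsx1-only cells lie between 1783 and 2519 TPM and those of the other groups between 503 and 1017 TPM. Stx3 means of Vsx1-only cells lie between 394 and 475 TPM and those of the other groups between 207 and 306 TPM. Single cells of the groups overlap for both genes.

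Of the syntaxins, Stx3 (chr19:11775118-11819403, minus strand), the ribbon synapse form, made up 99.3 ± 0.515% of the summed Stx3 and Stx1a TPM in Vsx1-only, 98.3 ± 1.13% in Ddit4l-only and 99.3 ± 0.923% in Sox6-only cells (SD, n = 2 mice). Its retina means were 475, 457, 452 and 394 TPM in Vsx1-only cells (1la, 1Ra, 2la, 2Ra). They were 306, 279, 207 and 213 TPM in Ddit4l-only cells and 270, 264, 221 and 290 TPM in Sox6-only cells. Every Vsx1-only retina lay above every retina of the other groups, which overlapped each other. Single cells did not separate: the range was 0 to 1046 TPM in Vsx1-only, 0.59 to 967 TPM in Ddit4l-only and 0 to 1435 TPM in Sox6-only cells, with 51 of 60 Vsx1-only cells above the Sox6-only median. The log2 fold change of Vsx1-only over Sox6-only cells was 0.70 ± 0.16 (SE, 1.62-fold, edgeR adjusted p = 0.418). Over Ddit4l-only cells it was 0.80 ± 0.16 (1.75-fold, edgeR adjusted p = 0.219). It was positive in 4 of 4 retinas in both. In sums per retina and by DESeq2 the adjusted p of the second was 0.0261 and 0.00618, but the fold change stayed under the size needed for a call.

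Stx1a (chr5:135023482-135051100, plus strand), the syntaxin of conventional synapses, was found in few cells. It was at 1 TPM or more in 5 of 60 Vsx1-only cells (8.33%, exact 95% binomial interval 2.76% to 18.4%), 5 of 59 Ddit4l-only cells (8.47%, 2.81% to 18.7%) and 6 of 151 Sox6-only cells (3.97%, 1.47% to 8.45%). The intervals overlap, and like all intervals here they cover counting error only. The mean was 2.97 ± 2.13 TPM in Vsx1-only, 4.65 ± 3.89 TPM in Ddit4l-only and 1.68 ± 2.37 TPM in Sox6-only cells, and no fold change is given for it.

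Among the synaptobrevins Vamp2 (chr11:69088490-69092384, plus strand) was the main form. Its retina means were 290, 279, 347 and 241 TPM in Vsx1-only cells (1la, 1Ra, 2la, 2Ra). They were 196, 250, 279 and 151 TPM in Ddit4l-only cells and 235, 188, 265 and 178 TPM in Sox6-only cells, and the 3 groups overlapped. The log2 fold change was 0.32 ± 0.15 in Vsx1-only over Sox6-only cells (edgeR adjusted p = 0.676) and 0.44 ± 0.15 in Vsx1-only over Ddit4l-only cells (edgeR adjusted p = 0.362), positive in 4 of 4 retinas in both. Over the 36 pairs of the 9 genes, the median Pearson r of log2(TPM + 1) across cells, which share retina and depth differences, was 0.01 in Vsx1-only, -0.01 in Ddit4l-only and 0.04 in Sox6-only cells.

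Vamp1 (chr6:125215551-125245964, plus strand) was lower and uneven between cells. Its mean was 32.6 ± 2.46 TPM in Vsx1-only, 27.3 ± 1.36 TPM in Ddit4l-only and 43.1 ± 0.713 TPM in Sox6-only cells (SD, n = 2 mice), while the medians over cells were 20.9, 17.1 and 20.6 TPM. Vamp2 stood 8.93 ± 0.369-fold above Vamp1 in Vsx1-only, 8.58 ± 0.309-fold in Ddit4l-only and 5.06 ± 0.105-fold in Sox6-only cells by TPM. Single retinas did not all keep this order. In 2Ra, Ddit4l-only cells had less Vamp2 (151 against 178 TPM) and more Vamp1 (31.03 against 28.9 TPM) than Sox6-only cells. The Ddit4l-only ratio was thus below the Sox6-only ratio in 2Ra, while it was above it in 1la, 1Ra and 2la. Neither difference in Vamp1 counts was called: the log2 fold change was -0.57 ± 0.33 in Vsx1-only over Sox6-only cells (edgeR adjusted p = 0.750) and -0.96 ± 0.33 in Ddit4l-only over Sox6-only cells (edgeR adjusted p = 0.583). Within retinas the sign of the first was negative in 2 and positive in 2, and that of the second negative in 3 and positive in 1 (2Ra, 0.07). With 1 retina left out the second ran from -1.69 (without 1Ra) to -0.48 (without 1la). The Vamp1 span overlaps Tapbpl, Cd27 and Mir8113 on the other strand in GENCODE M21, and that of Snap25 overlaps the pseudogene Gm14053. Smart-seq2 does not mark strand, so reads from overlapping stretches cannot be told apart.

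The complexins were almost entirely the 2 ribbon synapse forms. Cplx3 (chr9:57599992-57606281, minus strand) had retina means of 622, 575, 467 and 470 TPM in Vsx1-only cells (1la, 1Ra, 2la, 2Ra). They were 580, 361, 276 and 365 TPM in Ddit4l-only cells and 568, 560, 472 and 510 TPM in Sox6-only cells. All Ddit4l-only retinas but 1la lay below every retina of the other groups. Cplx4 (chr18:65955722-65970237, minus strand), its close relative, had 295, 240, 283 and 334 TPM in Vsx1-only cells. It had 469, 431, 369 and 369 TPM in Ddit4l-only cells and 282, 320, 292 and 342 TPM in Sox6-only cells. By TPM the lowest Ddit4l-only retina lay above the highest retina of the other groups, which overlapped each other. By CPM the groups overlapped, with 381 and 432 CPM in Ddit4l-only cells of 2la and 2Ra, against 436 CPM in Vsx1-only and 410 CPM in Sox6-only cells of 2Ra.

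In Ddit4l-only over Sox6-only cells the log2 fold change was -0.49 ± 0.14 for Cplx3 (edgeR adjusted p = 0.539) and 0.34 ± 0.19 for Cplx4 (edgeR adjusted p = 0.722). In Vsx1-only over Ddit4l-only cells it was 0.45 ± 0.14 for Cplx3 (edgeR adjusted p = 0.335) and -0.42 ± 0.19 for Cplx4 (edgeR adjusted p = 0.462). Between Vsx1-only and Sox6-only cells both were within 1 standard error of 0, at -0.05 ± 0.14 and -0.08 ± 0.19. Cplx3 and Cplx4 thus had opposite signs in both comparisons with Ddit4l-only cells, and neither was called. Within single retinas, Cplx4 of Vsx1-only over Ddit4l-only cells was negative in 3 and 0.01 in 2Ra, and Cplx3 was positive in 3 and -0.04 in 1la.

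As a share of the summed complexin TPM, Cplx3 made up 63.8 ± 5.70% in Vsx1-only, 44.4 ± 3.01% in Ddit4l-only and 61.9 ± 3.29% in Sox6-only cells (SD, n = 2 mice). Cplx4 made up 34.7 ± 6.30%, 49.2 ± 2.66% and 36.3 ± 2.97% in the same order. The ratio of Cplx3 to Cplx4 was 2.25 and 1.53 in Vsx1-only cells (mouse 1, mouse 2), 0.983 and 0.828 in Ddit4l-only cells and 1.88 and 1.55 in Sox6-only cells. By retina (1la, 1Ra, 2la, 2Ra) it was 2.11, 2.40, 1.65 and 1.41 in Vsx1-only, 1.24, 0.838, 0.747 and 0.989 in Ddit4l-only and 2.01, 1.75, 1.61 and 1.49 in Sox6-only cells. The Ddit4l-only ratio was thus under 1 in both mice and above 1 in retina 1la, and all 4 of its retinas lay below every retina of the other groups. These ratios are per length, and by CPM, which is not, Cplx3 was above Cplx4 in all groups. With 2 mice an exact permutation test over mice could not reach the threshold and none was run. The summed level of the 4 complexins was 832 ± 68.4 TPM in Vsx1-only, 830 ± 152 TPM in Ddit4l-only and 850 ± 39.2 TPM in Sox6-only cells, so the sum differed by less than the spread between mice. The shares of Cplx3 and of Cplx4 in Ddit4l-only cells did not overlap by mouse with those of the other groups. This difference in shares was not tested. Cell by cell, Cplx3 exceeded Cplx4 in 46 of 60 Vsx1-only, 26 of 59 Ddit4l-only and 112 of 151 Sox6-only cells.

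Complexin-4 is known from rods too. In cells with rod markers summing to under 1000 TPM, Cplx3 averaged 564 ± 95.9, 373 ± 91.2 and 538 ± 39.8 TPM and Cplx4 257 ± 17.7, 422 ± 38.02 and 286 ± 37.8 TPM in Vsx1-only, Ddit4l-only and Sox6-only cells (SD, n = 2 mice). The order of the groups for both genes there was that over all cells. In cells with rod markers summing to at least 1000 TPM, Cplx3 averaged 469 ± 63.7, 364 ± 95.7 and 498 ± 84.3 TPM in the same order of groups. Cplx4 averaged 332 ± 105, 351 ± 96.0 and 360 ± 50.9 TPM there, with the groups overlapping between mice, so its order over all cells was not seen. In these rod-rich cells of mouse 2, Cplx3 and Cplx4 were at 424 and 406 TPM in Vsx1-only and 296 and 283 TPM in Ddit4l-only cells. In mouse 1 the values were 514 and 258 TPM, and 431 and 419 TPM. The part of rod transcripts in these levels was not tested.

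**Figure D4:**
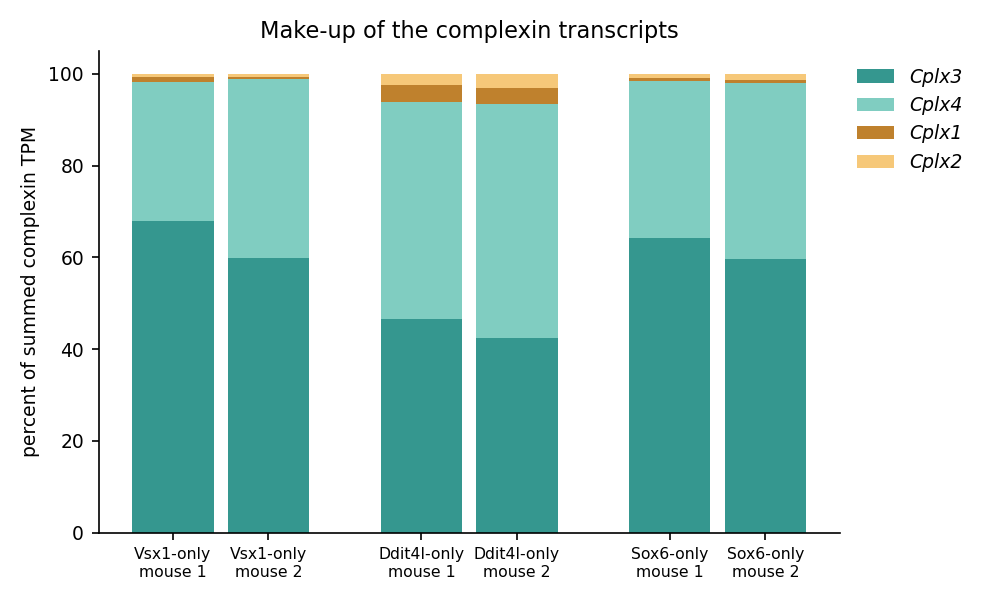
Share of each complexin in the summed TPM of Cplx1, Cplx2, Cplx3 and Cplx4, in percent, for each group and mouse. Cplx3 takes 59.6% to 67.9% in Vsx1-only and Sox6-only cells and 42.3% to 46.6% in Ddit4l-only cells, where Cplx4 takes 47.4% to 51.1%.

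Cplx1 and Cplx2, the complexins of conventional synapses, were low in all groups, and their highest levels were in Ddit4l-only cells. Cplx1 (chr5:108518554-108550024, minus strand) had retina means of 9.24, 12.9, 1.82 and 4.23 TPM in Vsx1-only cells (1la, 1Ra, 2la, 2Ra). They were 55.9, 22.2, 25.4 and 24.6 TPM in Ddit4l-only cells and 7.83, 4.22, 7.82 and 2.86 TPM in Sox6-only cells. The lowest Ddit4l-only retina lay above the highest of either other group. Cplx1 was at 1 TPM or more in 14 of 60 Vsx1-only cells (23.3%, exact 95% binomial interval 13.4% to 36.04%), 29 of 59 Ddit4l-only cells (49.2%, 35.9% to 62.5%) and 18 of 151 Sox6-only cells (11.9%, 7.22% to 18.2%). After thinning each cell to 200000 counts, cells with a Cplx1 count were 23.3%, 45.8% and 9.93% of the groups. At 20 TPM or more it was found in 8 of 60, 23 of 59 and 12 of 151 cells, so in Ddit4l-only cells too the transcript was split between cells at 20 TPM or more and cells with little or none (median 0.99 TPM).

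Cplx2 (chr13:54371349-54383917, plus strand) had 6.32, 4.94, 4.40 and 6.51 TPM in Vsx1-only cells. It had 24.6, 22.1, 18.4 and 29.9 TPM in Ddit4l-only cells and 10.04, 4.25, 7.63 and 14.5 TPM in Sox6-only cells. Again every Ddit4l-only retina lay above all retinas of the other groups, which overlapped. It was at 1 TPM or more in 40 of 60 Vsx1-only (66.7%), 52 of 59 Ddit4l-only (88.1%) and 95 of 151 Sox6-only cells (62.9%), and 49 of 59 Ddit4l-only cells were above the Sox6-only median.

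In Ddit4l-only over Sox6-only cells the log2 fold change of Cplx1 was 2.35 ± 0.69 (SE, 5.10-fold), at 46.5 and 35.9997 CPM against 9.14 and 7.05 CPM, with an edgeR adjusted p of 0.543. That of Cplx2 was 1.21 ± 0.38 (2.32-fold), at 70.7 and 73.7 CPM against 25.7 and 37.3 CPM, with an edgeR adjusted p of 0.554. Neither was called in sums per retina (adjusted p = 0.265 and 0.187), and DESeq2 called both (adjusted p = 0.0148 and 0.0490). Both were positive in 4 of 4 retinas. In Vsx1-only over Ddit4l-only cells the log2 fold change was -2.06 ± 0.70 for Cplx1 (edgeR adjusted p = 0.354) and -2.03 ± 0.38 for Cplx2 (edgeR adjusted p = 0.204), negative in 4 of 4 retinas for both. There, sums per retina called Cplx2 (adjusted p = 0.0258) but not Cplx1 (adjusted p = 0.265), and DESeq2 called both (adjusted p = 5.12e-05 for Cplx2 and 0.0316 for Cplx1). Amacrine cells are known to contain complexin-1 and complexin-2. The summed level of the 8 amacrine markers ranged over retinas from 1.28 to 19.3 TPM in Vsx1-only, 18.6 to 162 TPM in Ddit4l-only and 9.28 to 55.98 TPM in Sox6-only cells. The Ddit4l-only retina with 162 TPM was 2Ra, in which Cplx2 was also highest (29.9 TPM), while Cplx1 was highest in 1la, and the part of amacrine transcripts in these levels was not tested.

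**Figure D5:**
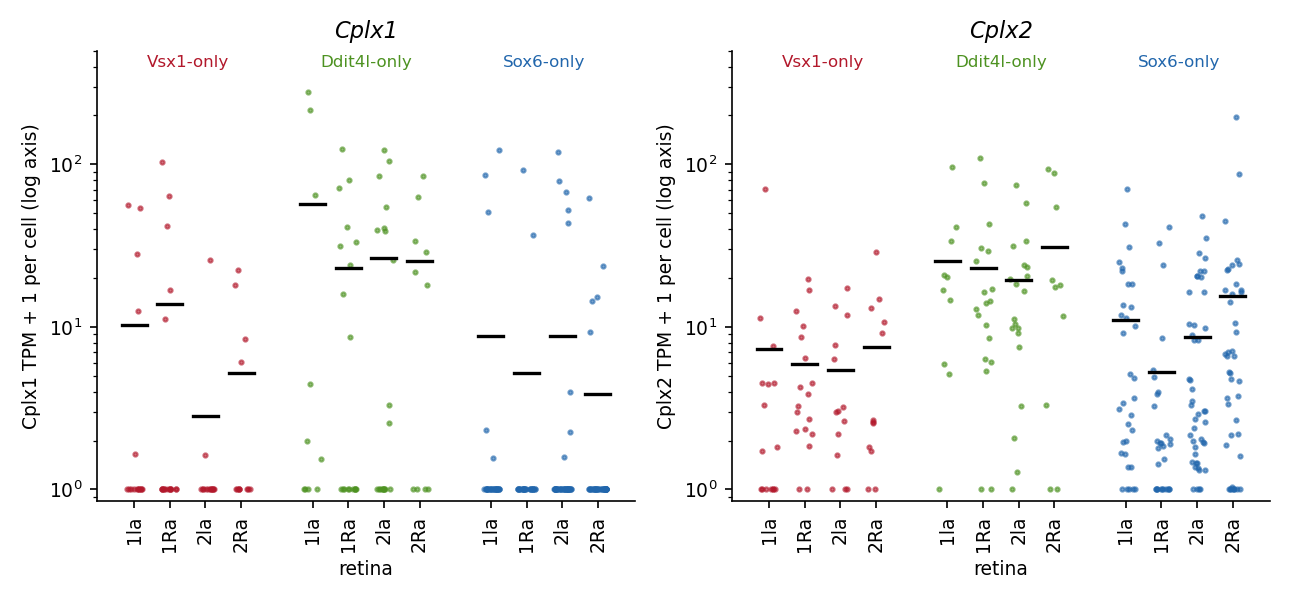
Cplx1 (left) and Cplx2 (right) TPM + 1 in each cell (log axis), by group and retina; black bars are retina means. Cells without a Cplx1 transcript lie on the base line in all groups, and retina means in Ddit4l-only cells lie between 22.2 and 55.9 TPM for Cplx1 and between 18.4 and 29.9 TPM for Cplx2.

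Other genes of the release pathway were read from lists of 27 further SNARE genes, 20 SNARE regulators and 28 vesicle proteins, of which 26, 19 and 25 were tested in sums per mouse. No gene of these lists was called there by edgeR in any of the 3 comparisons. In Vsx1-only over Sox6-only cells 0 further SNAREs, 6 regulators (31.6% of those tested) and 3 vesicle proteins (12%) were at an unadjusted edgeR p under 0.05. Over all genes the share was 8.58%. The median log2 fold change was -0.36, 0.11 and -0.19 for the lists, beside -0.06 over all genes. In Ddit4l-only over Sox6-only cells these counts were 0, 2 (10.5%) and 1 (4%), beside 8.03% of all genes. The medians there were 0.02, -0.27 and -0.36, beside -0.08 over all genes. In Vsx1-only over Ddit4l-only cells the counts were 3 (11.5%), 5 (26.3%) and 7 (28%), beside 12.8% of all genes. The medians there were 0.09, 0.93 and -0.06, beside 0.01 over all genes.

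In sums per retina, 4 of 16 regulators tested were called higher in Vsx1-only than in Sox6-only cells, and the same 4 higher than in Ddit4l-only cells, beside 0.806% and 2.29% of all genes called in either direction. These p-values, too, count the retinas of a mouse as separate replicates. Cadps, a priming factor for vesicles, had 519 and 615 CPM in Vsx1-only cells, against 123 and 104 CPM in Sox6-only cells (mouse 1, mouse 2), a log2 fold change of 2.38 ± 0.29 in the retina sums (edgeR adjusted p = 0.00911). Napb and Nsf, which encode the adaptor and the ATPase that take spent SNARE bundles apart, had 1.21 ± 0.17 (edgeR adjusted p = 0.0141) and 1.07 ± 0.16 (edgeR adjusted p = 0.0171). Stxbp5, which encodes the syntaxin-binding protein tomosyn, had 1.199 ± 0.199 (edgeR adjusted p = 0.0325). Of 22 vesicle proteins tested, Syt4 was called lower in Vsx1-only cells, at 348 and 417 CPM, against 1038 and 896 CPM in Sox6-only cells (log2 fold change -1.32 ± 0.19, edgeR adjusted p = 0.0168). No further SNARE gene was called in sums per retina or by DESeq2 in any comparison.

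The genes most like each of the 9 were ranked by Pearson correlation of log2(CPM + 1) over 12 sums (4 retinas by 3 groups) among 3861 genes of at least 50 CPM on average. The sums share retinas and well sets, and the values are a description. Nearest to Snap25 were Tmsb10 (r = 0.95), at 151, 4.60 and 10.8 CPM in Vsx1-only, Ddit4l-only and Sox6-only cells, then Cabp2 (0.95), at 151, 0.779 and 4.01 CPM, and Prnp (0.95), at 784, 223 and 334 CPM. Nearest to Stx3 were Stxbp5 (0.94), Mmd (0.92) and Cadps (0.91). Stxbp5 and Cadps were named above because they were called higher in Vsx1-only cells in these same sums. Their rank here is therefore not a separate result. Nearest to Cplx3 were Strn4 (0.97), Sra1 (0.90) and Reep2 (0.89), and nearest to Cplx4 were Lrrc4c (0.94), Smc6 (0.88) and Dtymk (0.87). Nearest to Cplx2 were Pepd (0.90), Fads1 (0.89) and Arhgap26 (0.87), the last at 73.3, 506 and 107 CPM. Nearest to Cplx1 were Rpsa-ps10 (0.96), a pseudogene that can share reads with the second gene, Rpsa (0.95), and then Cadm2 (0.92), at 56.04, 227 and 70.9 CPM. Nearest to Vamp2 were Fmn1 (0.93), Macf1 (0.89) and Hspa12a (0.89), and to Vamp1 were Eif2b4, Ctsd and Txnl1, of r 0.85 at most. Stx1a, near 0 in most cells, was nearest to Rplp2, Arf4 and Rpl30, also of r 0.85 at most.

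The set of Snap25, Stx3, Vamp2 and Cplx3 or Cplx4 at 1 TPM or more was found in 29 of 33 cells with no group-defining gene and in all 18 cells with more than 1. In the 33 cells Snap25 averaged 1009 and 2007 TPM (mouse 1, mouse 2), and Stx1a was at 0 in mouse 1 and 35.99 TPM in mouse 2, from 4 of the 33 cells. In the 18 cells Vamp1 ran from 9.98 through a median of 30.6 to 635 TPM in the 5 cells of mouse 1, where 1 cell set the mean of 166 TPM, and from 2.92 through 33.99 to 176 TPM in the 13 cells of mouse 2. The 62 wells with fewer than 3000 genes had a median of 788 genes. Snap25 was at 1 TPM or more in 41 of them, Cplx3 in 38, Vamp2 in 28 and Stx3 in 19, while Stx1a was found in none. Single wells there could be dominated by 1 transcript, with Cplx4 reaching 73232 TPM in a well of mouse 2.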

How the data were processed

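Each sorted cell went into a well of a 96-well plate and its full-length cDNA was made with Smart-seq2, per the labels' protocols. The submitters' processing notes name RSEM 1.2.28, TopHat2 2.0.10 and the build mm10. The annotation is not given in the sources used here. The authors deposited RSEM expected counts, which are estimated per gene and cell and not normalised. The authors also deposited TPM per gene and cell. Of 384 cells, 1 of retina 1la had no values. Columns were matched to cells by title, and no column was left out.

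Computed here were mean TPM per retina and per mouse, shares of cells with exact (Clopper-Pearson) 95% intervals, and tests on rounded expected counts summed per mouse and group. The tests used edgeR 4.0.16 (R 4.3.3, TMM, filterByExpr, quasi-likelihood F test) over all genes, with standard errors taken as the size of the log2 fold change over the square root of F. DESeq2 1.42.0 and limma 3.58.1 (on log2(TPM + 1)) served as alternatives. The mouse was a block because the sums of a mouse come from the same animal; over 16638 genes the difference between the mice correlated by 0.03, 0.03 and 0.07 between pairs of groups. The edgeR script was run on simulated counts with large changes, to check its median fold changes and its false calls. Its power at the smaller folds seen here was not tested. CPM used TMM-scaled library sizes.

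The 9 genes and all lists were chosen with earlier results of these data known. Vamp7 and Stxbp3 were not matched by symbol. Besides the 9, list genes were named only where called, at most 4 per list and comparison; since sums per mouse called none, the rule was applied to sums per retina. For likeness, the 3 nearest genes were named. Alternatives covered the block, the unit summed, the test, the scaling, filters on genes and cells, the marker threshold, rod transcripts, depth and each left-out retina or mouse.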

Additional observations from a re-analysis of the deposited data

Results flagged for a closer look

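Cplx1 in Ddit4l-only cells had a mean of 55.9 TPM in retina 1la, far from the 22.2, 25.4 and 24.6 TPM of retinas 1Ra, 2la and 2Ra. The gap to the nearest of the others, set against the whole range of the 4 retinas, was past Dixon's 95% critical value for 4 samples. There were 27 sets of 4 retinas (9 genes by 3 groups), and chance flags about 1 in 20 sets. The 1la mean came from 10 cells, the fewest with the 10 of 2Ra. Without retina 1la, Ddit4l-only over Sox6-only cells gave a log2 fold change for Cplx1 of 2.33, against 2.35 with it.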

How the results depend on the processing

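None of the 9 genes was called in the fit on sums per mouse with the mouse as a block, nor with DESeq2 size factors, no filter on low counts, marker genes at 10 or 50 TPM, at least 1500 or 5000 genes per cell, cells without rod sums of 1000 TPM, cells with no marker added, or any retina left out. In Vsx1-only over Sox6-only cells 1 gene, Snap25, was called without the replicate block, in sums per retina, by DESeq2, by limma on mean TPM, by limma on the mean of log2(TPM + 1) and after thinning. In Ddit4l-only over Sox6-only cells DESeq2 called 2 (Cplx1 and Cplx2) and limma on mean logs 1 (Cplx1). In Vsx1-only over Ddit4l-only cells 1 (Snap25) was called without the replicate block, by limma on mean TPM and after thinning, 2 in sums per retina, 3 by DESeq2 and 4 by limma on mean logs (with Stx3). Counts over all genes moved more: 0, 0 and 7 in the 3 comparisons against 16, 2 and 63 without the block, 117, 82 and 333 in sums per retina, 850, 766 and 1609 by DESeq2, 62, 21 and 196 by limma on mean TPM, 411, 238 and 765 on mean logs, 32, 11 and 93 after thinning, and 4, 1 and 12 with unmarked cells added. The third was also 4 at 50 TPM, 4 at 5000 genes, 0 without rod-rich cells and 0 to 11 without 1 retina, and the first was 1 at 50 TPM.

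Snap25 kept its sign in all 20 alternatives of each comparison, from 1.30 to 1.77 on the log2 scale in Vsx1-only over Sox6-only cells. Small differences turned their sign. In Vsx1-only over Sox6-only cells Cplx3 was 0.0092 by limma on mean TPM, 0.12 on mean logs and 0.015 without rod-rich cells, and -0.094 to 0.0053 over left-out retinas and mice. Cplx4 was 0.064 on mean logs. Cplx1 was -0.45 without rod-rich cells and -0.61 to 1.10 over left-out retinas and mice. In Ddit4l-only over Sox6-only cells Vamp2 was 0.10 by limma on mean TPM, 0.20 on mean logs and -0.22 to 0.021 over left-out retinas and mice, and Stx3 was -0.29 to 0.064. The cause was not tested. Leaving out a mouse gives a value with no test. Medians over cells moved 29 of 45 levels by more than the spread between mice. Over the 321 cells the median of Cplx1 and of Stx1a was 0 TPM, though in Ddit4l-only cells the median of Cplx1 was 0.99 TPM. From thinning at 200000 to thinning at 100000 counts, Cplx1 went from 23.3%, 45.8% and 9.93% to 21.7%, 45.8% and 11.9% of Vsx1-only, Ddit4l-only and Sox6-only cells. Stx1a went from 8.33%, 8.47% and 3.97% to 8.33%, 8.47% and 3.31%. Detection fell more for Cplx2, from 58.3%, 86.4% and 64.2% to 45%, 83.1% and 52.3%. Vamp1 fell from 95%, 89.8% and 94.7% to 75%, 79.7% and 83.4%.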
